A study of Mus musculus with 20 samples.

Results

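The 8 carbonic anhydrase genes Car1, Car2, Car4, Car7, Car8, Car9, Car12 and Car13 were followed through the growth of mouse colonic organoids (colonoids). They were taken by gene symbol from a table of transcript abundances that held 35240 gene symbols, and 32 of its 112994 transcripts with a symbol belonged to them. Colonoids were grown in Matrigel under Intesticult medium from the colonic crypts of wild-type (WT) or Tnfr2-/- mice, passaged 5 times, filtered and reseeded. WT mice were C57BL/6. Tnfr2-/- mice carry a targeted deletion of Tnfrsf1b, which encodes TNF receptor 2, in every cell and not in the epithelium alone. RNA was taken on 5 days counted from passage (days post-passage, DPP), which were 1, 2, 3, 5 and 7 DPP, from 2 mice of each genotype, which gave 20 libraries in 10 groups of 2. Days 1, 2 and 3 are called early here, and days 5 and 7 late. The mouse number is that of the sample titles, and the 5 libraries with 1 number in 1 genotype were read as cultures of the same mouse, so the libraries of a genotype are not fully independent.

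Carbonic anhydrases are zinc enzymes that interconvert carbon dioxide and bicarbonate with release or uptake of a proton. In the colon they feed the apical exchangers that take up sodium and chloride against protons and bicarbonate, and their levels are high in the absorptive cells at the crypt surface. The family members differ in where they sit. Car1, Car2, Car7 and Car13 are cytosolic, Car4 is anchored to the outer face of the apical membrane, and Car9 and Car12 span the membrane with the active site outside the cell. Car8 is a related protein without the enzyme activity, and Car9 is a classical gene induced by hypoxia.

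The stretch of coding sequence below is shown for the 7 enzymes because it holds part of the zinc site that they share. It was read from the GENCODE M21 transcripts (GRCm38, the assembly also called mm10) and covers 30 bases within 1 exon of each gene, on the strand that encodes the protein. Capitals mark the codons aligned with the first and the second of the 3 histidines that hold the zinc ion in Car2.
Car1, chr3:14776269-14776298, minus strand: actcagttcCATtttCACtggggcaactca
Car2, chr3:14895060-14895089, plus strand: atccagtttCACtttCACtggggctcatct
Car13, chr3:14650697-14650726, plus strand: cggcagttcCATttgCACtgggggtcagca
Car7, chr8:104547725-104547754, plus strand: aagcagctcCACttcCACtggggcaagaag
Car4, chr11:84964158-84964187, plus strand: gtacagttgCACctgCACtggtcaaatggg
Car9, chr4:43508955-43508984, plus strand: ttgcagttgCATctaCACtggggaacttca
Car12, chr9:66747638-66747667, plus strand: gagcagctgCACttgCACtgggggaaccgc
All 3 histidines were kept in the 7 enzymes. Over the aligned residues the translated proteins shared 58.5% of positions with Car2 for Car1, 57.6% for Car13, 55.0% for Car7, 39.0% for Car9, 38.1% for Car12 and 33.9% for Car4. Car1, Car2 and Car13 are neighbours on chromosome 3. Car13 lies at 14641727 to 14663002, Car1 at 14766216 to 14808368 and Car2 at 14886273 to 14900770.

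Values are abundances in TPM (a share of all transcripts that corrects for transcript length) divided by a size factor for each library, summed over the transcripts of a gene. They are already per length, so levels of different genes can be set side by side, and they carry no read depth. Library sums ran from 900655 to 1111080. Tests were made with limma on log2(value + 1) over the 13539 genes with a mean of at least 1, and a gene was called at a Benjamini-Hochberg adjusted p under 0.05 over all genes tested. The targeted gene, Tnfrsf1b, was lower in Tnfr2-/- libraries over all days by a log2 difference of -1.35 (SE 0.167, limma adjusted p = 9.72e-05). Its values in Tnfr2-/- libraries ran from 2.71 to 5.52 at early days and from 7.59 to 11.4 at late days, below every WT library of the same phase. Pan-epithelial markers summed to at least 11540 in every library. The 10 fibroblast markers, collagens among them, were also present in every library, with sums between 1242 and 8594. In such bulk RNA, fewer cells of a type and less RNA per cell cannot be told apart.

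Car2 had the highest mean level of the 8 genes, 178 ± 93.6 (SD over 20 libraries), and was above Car1 in 16 of 20 libraries. Car1 followed with a mean of 100.1 ± 191, the widest spread of the family, and Car9 with 68.0 ± 45.0. The order differed between groups. In late WT libraries the mean of Car1, 366 ± 297, was above that of Car2, 279.7 ± 125 (SD, n = 4). In Tnfr2-/- libraries Car1 had a mean of 8.90 ± 6.50 (SD, n = 10), below Car9 at 70.1 ± 34.3 and Car13 at 20.3 ± 3.32. The order of Car1 and Car9 was thus not stable, since Car1 was above Car9 in 7 of 20 libraries. Car13 came next at 20.3 ± 3.04, below Car9 in 18 of 20 libraries and above Car12 in all 20. Car12 stood at 3.73 ± 2.03, Car8 at 1.41 ± 1.14, Car4 at 1.04 ± 2.02 and Car7 at 0.630 ± 0.537. The last 3 of these were not separated beyond their spread, with Car8 above Car4 in 15 libraries and Car4 above Car7 in 8. All members except Car7 passed the filter on low values. Car4 did so because of WT mouse 1, and Car8 through Tnfr2-/- libraries, since its WT mean was 0.98. The fitted differences of Car4 and Car8 are therefore given below as values with no test, although both are counted among the 7 members tested.

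The late sum of the family was lower in Tnfr2-/- libraries. The late mean of Car1 was 366 in WT and 11.1 in Tnfr2-/- colonoids, and that of Car2 was 279.7 and 148.6. The 8 genes together summed to 1412 and 866 at 5 and 7 DPP in WT mouse 1 and to 400 and 445 in WT mouse 2. In Tnfr2-/- colonoids the late sums were 359 and 190 in mouse 1 and 333 and 275 in mouse 2, below the WT sums. Without Car1 the late sums overlapped, at 248.7 to 623 in WT and 184 to 339 in Tnfr2-/- colonoids. Car1 made up 32.6% to 55.9% of the late sum in WT and 2.46% to 5.67% in Tnfr2-/- colonoids. Car9 made up 9.29% to 22.7% in WT and 26.8% to 39.1% in Tnfr2-/- colonoids. The share of Car2 was 31.9% to 50.8% in WT and 46.6% to 55.2% in Tnfr2-/- colonoids, and that of Car13 was 1.62% to 4.61% and 5.62% to 13.9%. The shares of 1 sum are tied to each other, so a smaller Car1 raises those of the other members, and the levels of Car2, Car9 and Car13 themselves overlapped between genotypes.

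**Figure D1:**
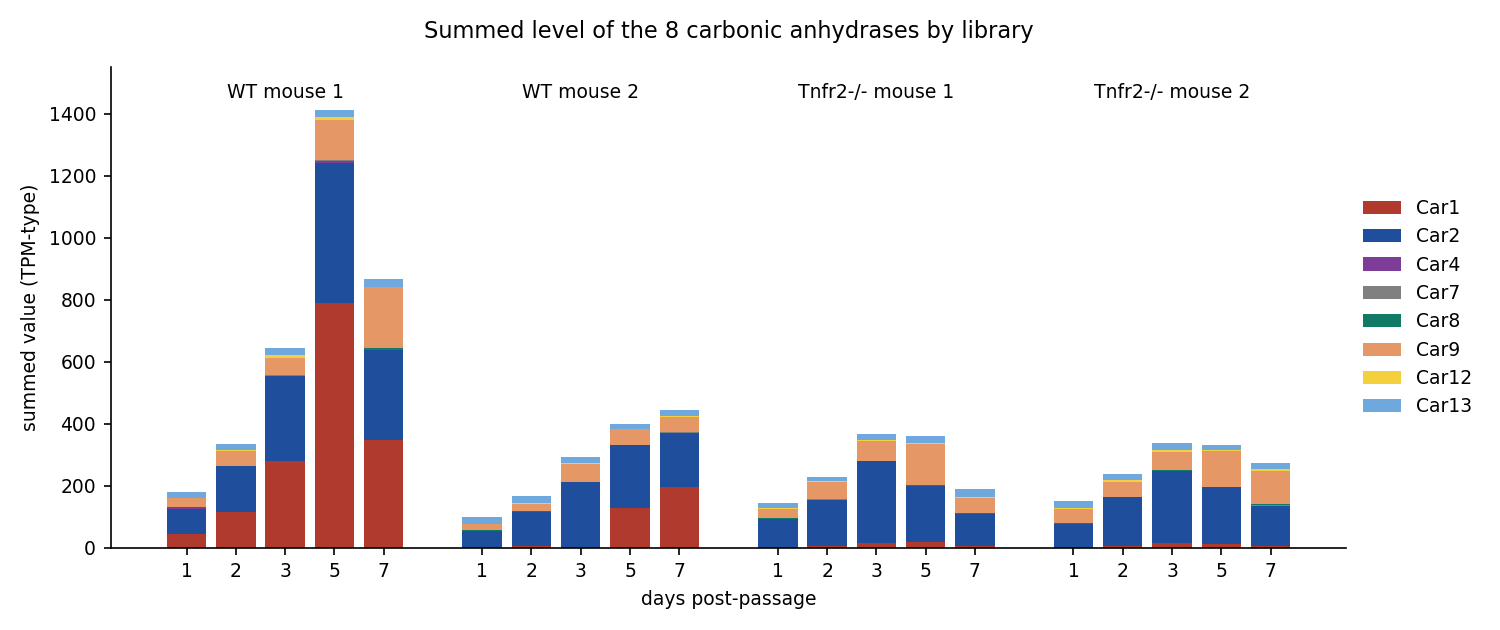
Stacked bars of the summed value of the 8 carbonic anhydrases in each of 20 libraries (y axis, abundance units), by mouse and days post-passage. Car1 fills 43.2% of the late WT sum on average and 3.67% of the late Tnfr2-/- sum, while Car2 is a large part of every bar.

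Car1, the low-activity cytosolic isozyme abundant in colonic absorptive cells and red cells, had the largest fitted difference between genotypes of the members tested. In WT mouse 1 it stood at 44.8, 115, 279, 789 and 347 at 1, 2, 3, 5 and 7 DPP. In WT mouse 2 it stood at 1.89, 4.98, 4.0, 130.1 and 197 on the same days. Both WT mice were therefore high at late days, but mouse 2 reached that range only at 5 DPP. In Tnfr2-/- mouse 1 the values were 1.03, 6.03, 15.9, 20.4 and 6.14, and in Tnfr2-/- mouse 2 they were 0.974, 5.66, 15.1, 11.01 and 6.74. The 4 late Tnfr2-/- libraries, at 6.14 to 20.4, lay below the 4 late WT libraries, at 130.1 to 789. At early days the genotypes overlapped, because WT mouse 2 lay within the Tnfr2-/- range. Late libraries of the genotypes did not overlap in 11.4% of all 13539 genes tested, and Car1 was the only one of the 8 members in which they did not. That 1 of 8 is near the share of all genes.

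Over all days Car1 was lower in Tnfr2-/- colonoids by a log2 difference of -3.02 (SE 0.749, limma adjusted p = 0.0206). It was the only 1 of 7 members tested that was called, where 7.60% of all genes were. At late days the Car1 difference was -4.74 (SE 1.19, adjusted p = 0.0315), a ratio of 0.0376 on the value + 1 scale. With Car2, 2 of 7 members were called at late days, against 6.45% of all genes, and both were lower in Tnfr2-/- colonoids. At early days Car1 differed by -1.88 (SE 0.971, adjusted p = 0.448). None of the 7 members was called by limma at early days, nor at an unadjusted p under 0.05, where 1.20% of all genes were called. Of all genes, 1746 of 13539 had an unadjusted p under 0.05. The change of the genotype difference from early to late days, the interaction, was -2.85 for Car1 (SE 1.54, adjusted p = 0.504). No member was called for it by limma, 1 had an unadjusted p under 0.05, and 0.148% of all genes were called. An unadjusted p under 0.05 was found for 1583 of 13539 genes.

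The Car1 call depended on which mice and libraries were used. Without WT mouse 1 the Car1 difference over all days was -1.27, and without WT mouse 2 it was -4.77. A fit without a mouse holds no spread between mice of that genotype, so its calls are not read as tests. With 1 mean per mouse, 2 against 2, the adjusted p of Car1 was 0.439 over all days and 0.132 at late days. The late Car1 call was lost without any 1 of 7 late libraries, all except that of WT mouse 2 at 5 DPP, with adjusted p of 0.0584 to 0.142 and a difference that stayed between -4.94 and -4.09. The value closest to 0 was that without WT mouse 1 at 5 DPP. The late difference was -3.88 without WT mouse 1 and -5.59 without WT mouse 2. Without Tnfr2-/- mouse 1 or mouse 2 the Car1 calls were lost over all days (adjusted p 0.174 and 0.224) and at late days (0.355 and 0.399). At early days Car1 differed by 0.46 without WT mouse 1 and by -4.23 without WT mouse 2. The interaction of Car1 was -4.35 without WT mouse 1. With no filter on low values the late Car1 call was lost at an adjusted p of 0.0638.

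**Figure D2:**
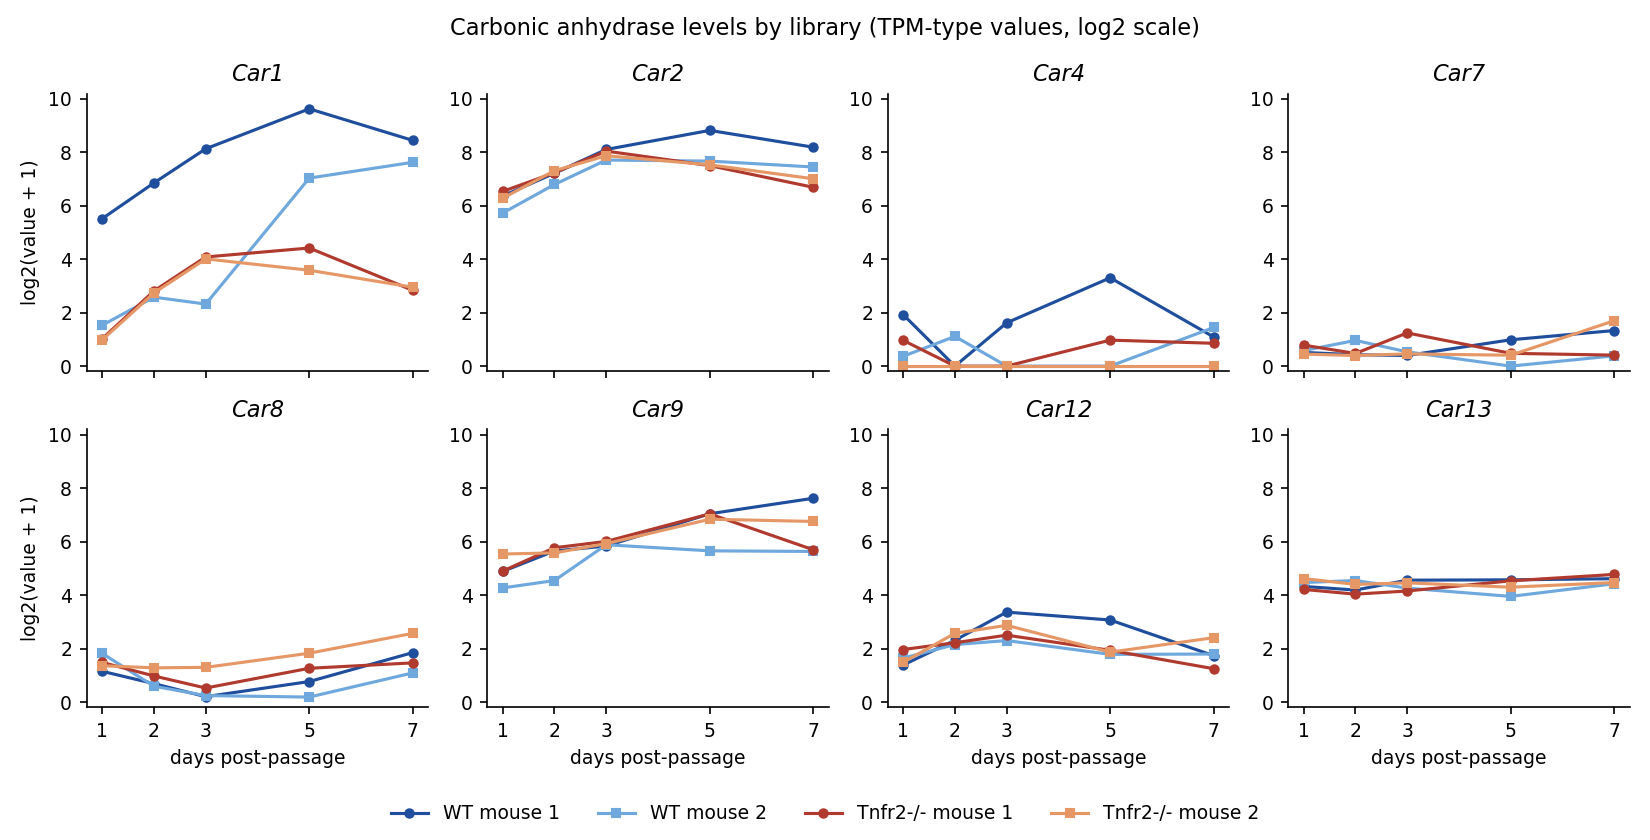
Level of each of the 8 carbonic anhydrases, as log2(value + 1), against days post-passage, 1 line per mouse. Car1 of WT mouse 1 is high from day 1, that of WT mouse 2 is at 4.0 at 3 DPP and 130.1 at 5 DPP, and both Tnfr2-/- mice stay at or below 20.4, while Car13 lies between 14.5 and 26.4 in all libraries.

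Car1 rose with time in WT colonoids. Late minus early, the WT log2 difference was 3.69 (SE 1.09, limma adjusted p = 0.0292), and Car1, Car2 and Car9 were the 3 of 7 members called, all higher, against 20.1% of all genes. In Tnfr2-/- colonoids the Car1 difference was 0.84 (SE 1.09, adjusted p = 0.644). No member was called by limma in Tnfr2-/- colonoids, 1 of 7 had an unadjusted p under 0.05, and 20.3% of all genes were called. An unadjusted p under 0.05 was found for 4409 of 13539 genes. All 4 mice had their lowest Car1 value at 1 DPP, as they did for Car2 and Car9, a pattern picked after seeing the values that 3.52% of all genes tested shared. The value at 3 DPP over that at 1 DPP was 15.5 in both Tnfr2-/- mice, 6.24 in WT mouse 1 and 2.12 in WT mouse 2. Both Tnfr2-/- mice thus started near 1 at 1 DPP and had values at 7 DPP below those of 3 DPP. The WT call of Car1 was lost without WT mouse 1 at 5 or 7 DPP (differences 3.05 and 3.49, adjusted p 0.129 and 0.101), without WT mouse 2 at 1, 2 or 3 DPP (3.03, 2.98 and 2.73, adjusted p 0.0722, 0.0703 and 0.0564) and on 1 mean per mouse (adjusted p = 0.136). It was also lost without either Tnfr2-/- mouse (adjusted p = 0.14 in both fits), with no filter (adjusted p = 0.0608) and with the highest transcript alone (adjusted p = 0.0648). The WT difference was 5.19 without WT mouse 1 and 2.20 without WT mouse 2. The Tnfr2-/- difference of Car1 was still 0.84 without WT mouse 1 or WT mouse 2, with an SE of 0.176 and 0.161. All groups share 1 estimate of the spread, so the SE of 1.09 also holds the difference between the WT mice. A call in WT without a call in Tnfr2-/- colonoids is therefore not read as a difference between the genotypes.

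Car1 expression in colon and in red cell precursors is known to start from separate promoters, and the table held 3 Car1 transcripts. The starts of ENSMUST00000181860.7 and ENSMUST00000144327.2 lie close together, and that of ENSMUST00000094365.10 lies apart. ENSMUST00000181860.7 starts at position 14808365 of chromosome 3, has 8 exons and held 79.5% of the Car1 sum over all libraries. ENSMUST00000094365.10 starts at 14778459, has 7 exons and held 13.0%. The third, ENSMUST00000144327.2, is a short transcript from 14808368 with 7.56%. In 13 of 20 libraries 1 transcript held over 90% of the Car1 sum. ENSMUST00000181860.7 was estimated at under 0.01 in 8 of 10 Tnfr2-/- libraries and in 2 of 10 WT libraries. Its 2 other Tnfr2-/- libraries were both from 3 DPP, at 14.3 and 15.1, where ENSMUST00000094365.10 was at or near 0. At late days all 4 Tnfr2-/- libraries were assigned entirely to ENSMUST00000094365.10. In WT, 5 DPP was assigned to ENSMUST00000181860.7 by 99.8% or more, and 7 DPP was split, with 49.0% and 66.7% on ENSMUST00000181860.7.

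Few bases separate those Car1 transcripts. Of the 1164 stretches of 31 bases in ENSMUST00000181860.7, 65 (5.58%) were missing from ENSMUST00000094365.10, and 1 was found in neither of the other two transcripts. Of the 1150 stretches in ENSMUST00000094365.10, 51 (4.43%) were missing from ENSMUST00000181860.7. Per transcript, ENSMUST00000181860.7 was lower in Tnfr2-/- colonoids over all days by -4.54 (SE 1.12, limma adjusted p = 0.0749) and ENSMUST00000094365.10 differed by 0.20 (SE 0.676, adjusted p = 0.944). No member transcript was called for genotype, where 0.715% of 38609 transcripts were. The late minus early difference of ENSMUST00000094365.10 was 2.95 in WT (SE 0.443, adjusted p = 0.00465) and 2.30 in Tnfr2-/- colonoids (SE 0.443, adjusted p = 0.0155). The assignment between transcripts turned between neighbouring days, and its part in these calls was not tested. In Tnfr2-/- colonoids the Car1 sum differed by 0.84 without a call. Only the Car1 sum is relied on for the course of this gene. ENSMUST00000094365.10 was 1 of 2 member transcripts called in WT (3.41% of all transcripts) and the only one called in Tnfr2-/- colonoids (3.34%). The Tnfr2-/- call of ENSMUST00000094365.10 was lost without Tnfr2-/- mouse 1 at 5 or 7 DPP or Tnfr2-/- mouse 2 at 7 DPP, with adjusted p of 0.0588 to 0.0792. ENSMUST00000181860.7 differed from early to late by 4.08 in WT (SE 1.38, adjusted p = 0.141) and by -1.32 in Tnfr2-/- colonoids (SE 1.38, adjusted p = 0.737).

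**Figure D3:**
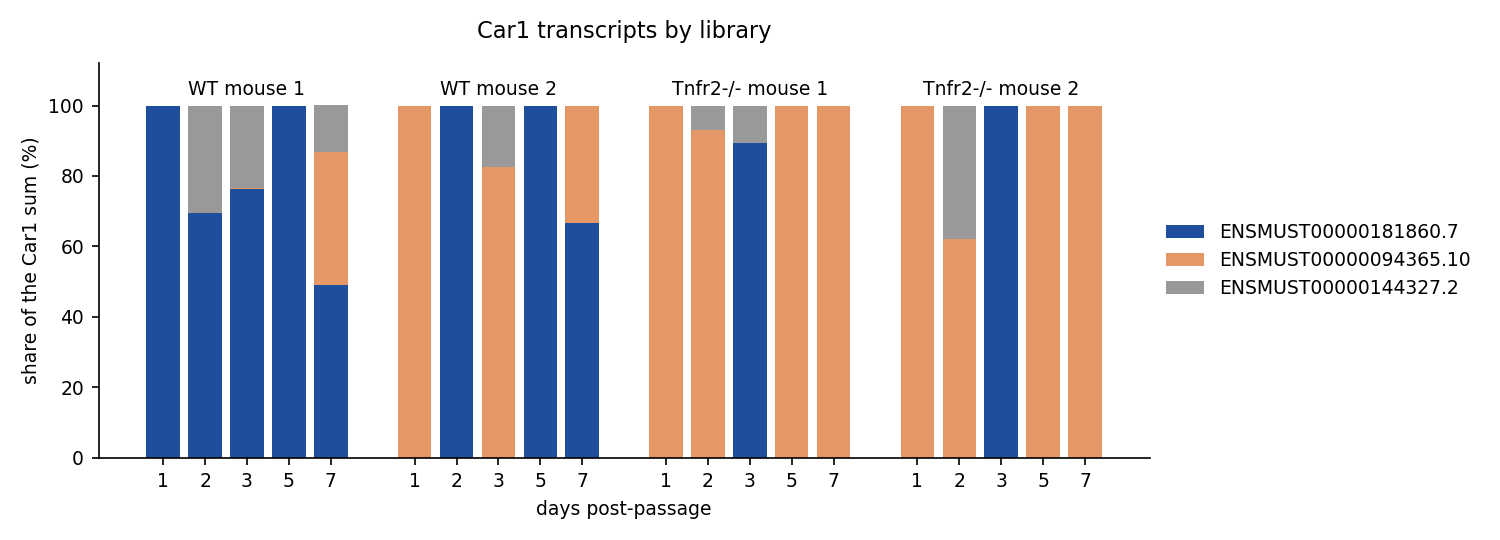
Share of the Car1 sum (y axis, percent) assigned to each of 3 transcripts in each library, by mouse and days post-passage. The late Tnfr2-/- bars are ENSMUST00000094365.10 alone, the WT bars at 5 DPP are ENSMUST00000181860.7, and the 2 genotypes switch transcripts between neighbouring days.

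The 17 absorptive markers, Car1 not among them, summed to 4351 and 9367 at late days in WT mouse 1 and to 1629 and 2108 in WT mouse 2. The late sums of Tnfr2-/- colonoids were 1644 and 2344 in mouse 1 and 1748 and 2185 in mouse 2, within the range of WT mouse 2 or just above it. At late days 2 of the 17 markers were called between genotypes, both lower in Tnfr2-/- colonoids. They were Cyp2c55 (-4.39, adjusted p = 0.0337), close in size to Car1, and Dhrs11 (-0.78, adjusted p = 0.0234). The median log2 difference over the list was -0.88, against -0.05 over all genes. Of all genes 6.45% were called in that comparison. From early to late days 10 of 17 were called in WT, where 20.1% of all genes were, and 5 of 17 in Tnfr2-/- colonoids, where 20.3% were. All of these were higher at late days, and the list medians were 1.66 and 0.61. Of the 17 markers, 3 were under 1 in every early Tnfr2-/- library and 3 in every late one, against 0 and 1 in WT. Such genes passed the filter through other libraries, so the counts of the genotypes are not fully comparable. The late sums of 2 other cell type lists did not overlap between genotypes. The 7 deep crypt secretory markers, Reg4 among them, summed to 53.1 to 394 in late WT and to 26.6 to 44.2 in late Tnfr2-/- libraries, and the 6 immune cell markers to 11.4 to 20.9 and 25.9 to 50.7. The part of absorptive, secretory or immune cells in the Car1 difference was not tested. The 9 red blood cell markers were near 0. All had a mean under 1, the highest value of any was 3.09 (Hbb-bs), and their sum did not exceed 3.82 in any library.

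**Figure D4:**
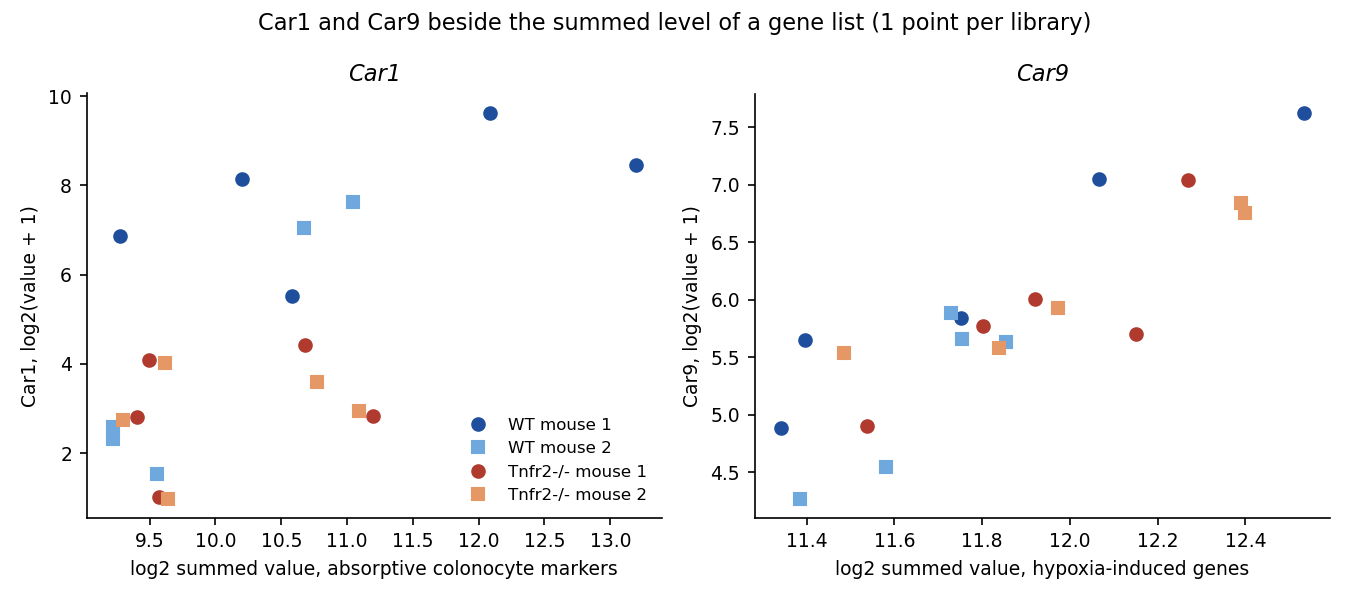
Car1 against the summed level of 17 absorptive colonocyte markers (left) and Car9 against that of 20 hypoxia-induced genes (right), both axes on a log2 scale, 1 point per library. On the left the points farthest to the right, late WT mouse 1 at sums of 4351 and 9367, are also the highest in Car1, and on the right WT mouse 2 has the lowest late values of both measures.

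Car2, the fast cytosolic isozyme of the colonic epithelium, was higher at 2 DPP than at 1 DPP, and at 3 DPP than at 2 DPP, in all 4 mice, a pattern picked after seeing the values that 2.05% of all genes shared. It went from 81.3 at 1 DPP to 148 and 274 at 2 and 3 DPP in WT mouse 1, and from 52.0 to 110.1 and 208 in WT mouse 2. It went from 91.7 to 149.6 and 263 in Tnfr2-/- mouse 1, and from 76.8 to 158 and 233 in Tnfr2-/- mouse 2. The 3 DPP value was 2.87 to 4.01 times the 1 DPP value, and the genotypes overlapped at early days. Only WT mouse 1 was higher at 5 DPP than at 3 DPP. WT mouse 1 stood at 451 and 291 at 5 and 7 DPP and WT mouse 2 at 203 and 174. Tnfr2-/- mouse 1 stood at 180 and 102 and Tnfr2-/- mouse 2 at 184 and 128, so that 7 DPP was below both WT mice while 5 DPP was just below WT mouse 2. Late values still overlapped between genotypes, since WT mouse 2 at 7 DPP lay below the 5 DPP values of the Tnfr2-/- mice.

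From early to late days Car2 rose in WT colonoids by 1.05 on the log2 scale (SE 0.217, limma adjusted p = 0.00503) and differed by -0.03 in Tnfr2-/- colonoids (SE 0.217, adjusted p = 0.945). The difference between those changes was -1.08 (SE 0.306, adjusted p = 0.19), which did not pass the threshold. It was -1.31 without WT mouse 2 and -1.36 without the library of that mouse at 5 DPP. Between genotypes Car2 was lower in late Tnfr2-/- colonoids by -0.85 (SE 0.237, adjusted p = 0.0496). It differed by 0.23 at early days (SE 0.194, adjusted p = 0.691) and by -0.20 over all days (SE 0.185, adjusted p = 0.558). The late Car2 call stood at the threshold and was lost in 19 of the 24 fits that left out 1 library or mouse. Without WT mouse 1 it was -0.38 (adjusted p = 0.137). Without WT mouse 1 at 5 DPP it was -0.56. It kept the call without either WT mouse 2 library of late days and without either WT library of 1 DPP. The call was also kept without WT mouse 2 as a whole, a fit that holds no spread between WT mice. On 1 mean per mouse the adjusted p of Car2 was 0.198 at late days and 0.0828 for the WT rise. The WT rise of Car2 also lost its call without either Tnfr2-/- mouse (adjusted p 0.0582 and 0.0576). The late Car2 call was lost with a pseudocount of 0.5 (adjusted p = 0.0508), no filter (0.0869) and the highest transcript alone (0.12). One Car2 transcript, ENSMUST00000029078.8, held 93.7% of the gene's sum and rose in WT by 1.07 (SE 0.240, adjusted p = 0.0303). That call was lost without WT mouse 1 at 5 or 7 DPP or WT mouse 2 at 1, 2 or 3 DPP (adjusted p of 0.0703 to 0.136) and with no filter (adjusted p = 0.0533).

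**Figure D5:**
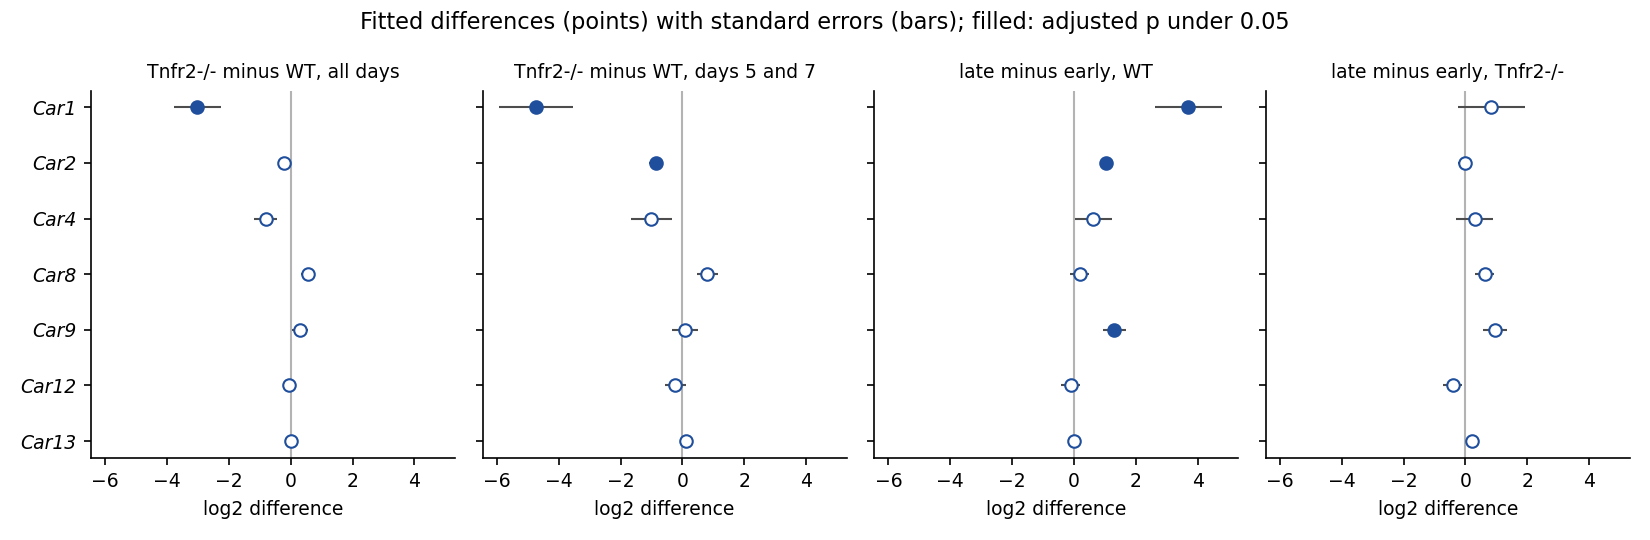
Fitted log2 differences (points) with standard errors (bars) of the 7 carbonic anhydrases tested, in 4 comparisons. Filled points passed an adjusted p of 0.05, which holds for Car1 in 3 panels, for Car2 in 2 and for Car9 in the WT course alone, and no point is filled in the Tnfr2-/- course.

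Car13, a cytosolic isozyme that is encoded beside Car1 and Car2, was not called in any comparison. It was transcribed as a single annotated transcript and ran from 14.5 to 23.5 in WT libraries (median 20.9) and from 15.4 to 26.4 in Tnfr2-/- libraries (median 20.6). Between genotypes it differed by 0.004 over all days on the log2 scale (SE 0.102, limma adjusted p = 0.988), and its late minus early differences were -0.001 in WT (SE 0.161, adjusted p = 0.998) and 0.20 in Tnfr2-/- colonoids (SE 0.161, adjusted p = 0.418). Over its 6 comparisons the fitted differences lay between -0.08 and 0.21. Car7, the remaining cytosolic member and best known from neurons, ran from 0 to 2.24, with a mean under 1 in both genotypes, and was not tested.

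Car9, the transmembrane isozyme induced by hypoxia, rose in WT colonoids and was not called between genotypes. It stood at 28.6, 49.4, 56.3, 131 and 197 at 1, 2, 3, 5 and 7 DPP in WT mouse 1 and at 18.3, 22.4, 58.2, 49.5 and 48.8 in WT mouse 2. In Tnfr2-/- colonoids it stood at 28.9, 53.8, 63.5, 131 and 51.0 in mouse 1 and at 45.5, 46.9, 59.9, 114 and 107 in mouse 2. All 4 mice had their lowest Car9 value at 1 DPP. At 5 DPP both Tnfr2-/- mice and WT mouse 1 were above 110, and WT mouse 2 did not pass 58.2 on any day. The genotypes overlapped over all days, at early and at late days. From early to late days Car9 rose in WT by 1.31 (SE 0.381, limma adjusted p = 0.0278), and in Tnfr2-/- colonoids the difference was 0.96 (SE 0.381, adjusted p = 0.0929).

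The fits of Car9 moved with WT mouse 1. Between genotypes Car9 differed by 0.30 over all days (SE 0.251, limma adjusted p = 0.514), by 0.44 at early days (SE 0.341, adjusted p = 0.651) and by 0.09 at late days (SE 0.417, adjusted p = 0.925), and the interaction was -0.35 (SE 0.538, adjusted p = 0.847). Without WT mouse 1 the difference over all days was 0.81 and the WT rise of Car9 was 0.74, in fits that hold no spread between WT mice. The WT rise of Car9 also lost its call without WT mouse 1 at 5 DPP (0.96, adjusted p = 0.141) or 7 DPP (0.81, adjusted p = 0.15), without WT mouse 2 at 1, 2 or 3 DPP (1.21, 1.13 and 1.32, adjusted p of 0.0504 to 0.0687) on 1 mean per mouse (adjusted p = 0.15), with no filter (adjusted p = 0.0565) and without either Tnfr2-/- mouse (adjusted p = 0.112 in both fits). The Tnfr2-/- difference of Car9 was still 0.96 without either WT library of 7 DPP or either WT mouse, where it passed the threshold. These fits change the spread shared by all groups and not the Tnfr2-/- values. The main Car9 transcript, ENSMUST00000030183.9, held 74.2% of the sum and ENSMUST00000126750.1 held 10.4%. ENSMUST00000030183.9 differed from early to late days by 1.35 in WT (SE 0.348, adjusted p = 0.0555) and by 0.99 in Tnfr2-/- colonoids (SE 0.348, adjusted p = 0.170), and between genotypes by 0.48 (SE 0.230, adjusted p = 0.429).

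The promoter of Car9 is shown because its course can be set beside that of other hypoxia genes. The core of a hypoxia response element, the site bound by hypoxia-inducible factors, holds the letters ACGTG. In RefSeq promoter windows (GRCm38.p6, 250 bases before to 50 bases after an annotated start), searched on both strands, the Car9 window held these letters once, on the reverse strand, beginning 18 bases before the start. That start, 43507026, is not the start of the main Car9 transcript ENSMUST00000030183.9, which lies at 43506966, so the letters begin 42 bases inside that transcript. The 30 bases around it are given on the plus strand, with the reverse complement of the core in capitals.
Car9, chr4:43506996-43507025, plus strand: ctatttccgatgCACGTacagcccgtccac
Windows were matched for 4 of the 8 members. The Car4 window also held the letters once, and those of Car12 and of 3 Car7 starts did not. Of 32851 promoter windows, 6447 (19.6%) held them, so their presence is a description of the sequence only.

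Of 20 hypoxia-induced genes, Car9 not among them, 13 rose from early to late days in WT and 16 in Tnfr2-/- colonoids, and none of those called was lower, where 20.1% and 20.3% of all genes were called in either direction. The median log2 difference of the list was 0.82 in WT and 0.87 in Tnfr2-/- colonoids, against 0.02 over all genes in both. In WT the lowest p belonged to Bnip3, a mitophagy receptor (2.28, limma adjusted p = 8.3e-05), the mTOR inhibitor Ddit4 (1.17, 2.25e-04), the pyruvate dehydrogenase kinase Pdk1 (1.43, 3.18e-04) and the prolyl hydroxylase Egln3 (1.54, 8.73e-04). In Tnfr2-/- colonoids they were Bnip3 (1.96, adjusted p = 9.9e-05), Egln3 (2.11, 1.08e-04), adrenomedullin, Adm (2.73, 1.54e-04), and Vegfa (1.16, 2.13e-04). The sum of the 20 genes ran from 2594 to 5926 in WT and from 2869 to 5402 in Tnfr2-/- libraries. WT mouse 2, in which Car9 stayed lowest at late days, also had the lowest late sums, 3457 and 3704. Tnfr2-/- mouse 1 at 7 DPP had a similar Car9 value, 51.0, with a sum of 4547, above the sum of 4288 in WT mouse 1 at 5 DPP, where Car9 was 131. Between genotypes 6 of the 20 were called over all days, where 7.60% of all genes were, all higher in Tnfr2-/- colonoids, with a list median of 0.24.

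Car12, the other transmembrane isozyme, stayed low and was highest at 3 DPP in all 4 mice. At 3 DPP it stood at 9.31 in WT mouse 1, 3.93 in WT mouse 2, 4.67 in Tnfr2-/- mouse 1 and 6.32 in Tnfr2-/- mouse 2. Of all 13539 genes, 0.583% were highest at 3 DPP in all 4 mice, a pattern that was picked after seeing the values. WT libraries ran from 1.62 to 9.31 (median 2.96) and Tnfr2-/- libraries from 1.38 to 6.32 (median 3.29). Between genotypes Car12 differed by -0.05 with all days in the fit (SE 0.198, limma adjusted p = 0.916), and late minus early it was -0.10 in WT (SE 0.306, adjusted p = 0.857) and -0.41 in Tnfr2-/- colonoids (SE 0.306, adjusted p = 0.398). Its sum was spread over ENSMUST00000071889.12 (36.5%), ENSMUST00000085420.11 (28.8%) and ENSMUST00000134829.1 (22.7%), which had values of 0 in 8, 10 and 13 of the 20 libraries.

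Car4, the membrane-anchored isozyme of the colonic surface, was listed at 0 in 3 of 10 WT and in 7 of 10 Tnfr2-/- libraries. WT mouse 1 had 2.80, 0, 2.07, 8.88 and 1.13 at the 5 days and WT mouse 2 had 0.289, 1.16, 0, 0 and 1.72. Tnfr2-/- mouse 1 had 0.949, 0, 0, 0.962 and 0.807, and all 5 libraries of Tnfr2-/- mouse 2 were at 0. The highest value was that of WT mouse 1 at 5 DPP, where Car1 and Car2 were highest too. The fitted difference of Car4 between genotypes was -0.81 over all days (SE 0.367) and -1.003 at late days (SE 0.654). With libraries or mice left out it ran from -1.31 to -0.31 over all days and from -1.83 to -0.18 at late days. Late minus early, Car4 differed by 0.62 in WT (SE 0.597) and by 0.30 in Tnfr2-/- colonoids (SE 0.597). At these levels a fitted difference depends on the 1 added to each value. ENSMUST00000108076.2 held 54.9% and ENSMUST00000150596.7 held 31.2% of the Car4 sum.

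Car8, the member without the enzyme activity, was low in both genotypes. WT libraries ran from 0.139 to 2.61 (median 0.658) and Tnfr2-/- libraries from 0.44 to 4.95 (median 1.51). The highest value was 4.95 in Tnfr2-/- mouse 2 at 7 DPP, followed by 2.61 in WT mouse 1 at 7 DPP. The log2 difference between genotypes was 0.55 over all days (SE 0.206) and 0.81 at late days (SE 0.335). With libraries or mice left out it ran from 0.28 to 0.81 and from 0.39 to 1.23. From early to late days Car8 differed by 0.19 in WT (SE 0.306) and by 0.63 in Tnfr2-/- colonoids (SE 0.306).

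Of the 8 other carbonic anhydrase genes in the table only Car5b, a mitochondrial isozyme, passed the filter. It ran from 2.03 to 4.08 in late WT libraries and from 8.22 to 12.5 in late Tnfr2-/- libraries, without overlap. Car5b was higher in Tnfr2-/- colonoids by 0.76 over all days (SE 0.181, limma adjusted p = 0.0177) and by 1.40 at late days (SE 0.216, adjusted p = 0.00251). It rose with time in Tnfr2-/- colonoids by 0.97 (SE 0.197, adjusted p = 0.00407) and differed by -0.10 in WT (SE 0.197, adjusted p = 0.776), and its interaction of 1.07 was not called (adjusted p = 0.165). The rest of the family, Car3, Car5a, Car6, Car10, Car11, Car14 and Car15, had means under 1.

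WT mice differed from each other in the same members. Car1 was higher in WT mouse 1 than in WT mouse 2 by 3.50 (SE 0.508, limma adjusted p = 0.0021), Car2 by 0.67 (SE 0.115, adjusted p = 0.00546) and Car9 by 1.01 (SE 0.26, adjusted p = 0.0355), all 3 on the log2 scale with day in the fit. These were 3 of 7 members, against 8.09% of all genes. Car9 lost that call when either mouse's library of 2, 5 or 7 DPP was left out (0.77 to 0.99, adjusted p of 0.0832 to 0.132), with no filter (adjusted p = 0.0824) and with the highest transcript alone (0.88, adjusted p = 0.0662). Between the 2 Tnfr2-/- mice no member was called by limma and none had an unadjusted p under 0.05, where 0.0960% of all genes were called. Of all genes, 835 of 13539 had an unadjusted p under 0.05. Markers of other cells moved with the WT mice as well. In WT mouse 1 against mouse 2, 10 of 17 absorptive markers and 6 of 7 goblet cell markers tested were called, all higher. Goblet markers summed to 2305 and 1822 at late days in WT mouse 1, to 269 and 873 in WT mouse 2 and to 203 to 308 in Tnfr2-/- colonoids. Fibroblast markers summed to 1242 and 1829 at late days in WT mouse 1, to 3334 and 4051 in WT mouse 2 and to 3728 to 8594 in Tnfr2-/- colonoids. The part of these cell types in the differences of Car1, Car2 and Car9 was not tested.

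Genes that work with carbonic anhydrases in bicarbonate, proton and chloride transport gave mixed directions. Of 25 listed genes 19 were tested. At late days 2 were higher and 5 lower in Tnfr2-/- colonoids, with a median of -0.42, where 6.45% of all genes were called. Those with the lowest p were the sodium-proton exchanger Slc9a2 (0.97, limma adjusted p = 0.0106), the lactate and proton carrier Slc16a3 (1.06, 0.0223), the chloride and bicarbonate channel Cftr (-1.31, 0.0249) and the exchanger Slc9a8 (-0.77, 0.0289). From early to late days 9 of the 19 were called in WT, all higher, with a median of 0.67, against 20.1% of all genes. The first 4 were the chloride cotransporter Slc12a2 (0.97, adjusted p = 1.78e-04), the sodium-bicarbonate cotransporter Slc4a7 (1.03, 5.59e-04), Slc16a3 (1.53, 6.78e-04) and the colonic proton pump Atp12a (2.93, 0.00179). In Tnfr2-/- colonoids 7 rose and 1 fell, with a median of 0.20, against 20.3% of all genes called. Slc4a7 (1.26, adjusted p = 1.36e-04), Slc12a2 (0.85, 2.47e-04) and Slc16a3 (1.20, 0.00238) were again among the first 4, beside the scaffold gene Slc9a3r1, which fell by 0.84 (8.8e-04).

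Across the 20 libraries the members followed each other unevenly. The Pearson correlation of log2(value + 1) was 0.72 for Car2 with Car9, 0.70 for Car1 with Car2, 0.66 for Car2 with Car12 and 0.58 for Car1 with Car4. These points share mouse, day and genotype and are given as a description. Among 10650 other genes with a mean of at least 5, those most like Car1 were Cyp2c55 (r = 0.972), Myo1a (0.947) and Reg4 (0.943), of which Cyp2c55 is on the absorptive list and Reg4 on the deep crypt secretory list. Those most like Car2 were Ucp2 (0.959), Ap1m2 (0.958) and Eef2 (0.953), and those most like Car9 were Golm1 (0.901), P2ry6 (0.899) and Vsig1 (0.897). For Car12 they were Rpl7a (0.827), Qdpr (0.818) and Map3k21 (0.798), for Car4 Dcbld1 (0.835), Akr1c12 (0.813) and Fam160a2 (0.808), and for Car8 Fmnl3 (0.872), Mmp13 (0.863) and Slc14a1 (0.858). Car13 had the weakest likeness, with Krcc1 (0.699), Ugp2 (0.698) and Mettl27 (0.687).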

How the data were processed

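Single-end RNA-seq libraries of colonoids were processed by the authors with CASAVA, kallisto and sleuth (build mm10, per the labels). The deposited signal values used here are kallisto transcript abundances (TPM) divided by 1 size factor per library. They hold no counts, and the study's methods state only an approximate read number for all samples, so the depth of each library is unknown and no counting interval is given. Deposited tables of the authors' own comparisons (p-values, q-values and effects on a natural log scale) were not used. Of 113974 lines, 781 repeats were dropped, and values were summed per gene symbol. All values of the 8 genes came from this table. Of 112994 transcripts, 96.7% were found in GENCODE M21 with the same version, including all 32 of the members.

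Tests used limma 3.58.1 (R 4.3.3) on log2(value + 1), genes or transcripts with a mean of at least 1, a mean-variance trend and Benjamini-Hochberg adjustment. The genotype difference over all days was fitted with day as a term, and the other comparisons with 1 mean for each of the 10 groups. These groups shared 1 estimate of the spread, so a test within 1 genotype also holds the spread between mice of the other. The script was tested on simulated data. Members and gene lists were chosen with earlier results of these data known. Named genes were all members (by range below a mean of 1), transcripts with at least 10% of their gene, the 3 genes most like each member, and up to 4 genes of the transport and hypoxia lists with the lowest p. Alternatives were a pseudocount of 0.5, no filter, equal library totals, a replicate block, means per mouse, the highest transcript alone, and each library or mouse left out. P-values over libraries of 2 mice treat days of 1 mouse as separate samples and may be too small. Within WT, deviations of days of the same mouse correlated at 0.10 to 0.307, within Tnfr2-/- at -0.051 to 0.08. Promoter windows were from RefSeq, and motif and alignment searches used Biopython 1.88. The coding sequence of Car8 is not reported here.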

Additional observations from a re-analysis of the deposited data

Results flagged for a closer look

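Of 32 groups of a member within 1 genotype and phase (4 or 6 libraries), 5 had a highest library far above the rest, where chance gives about 1 in 20 for normally distributed values, a rate that was not measured for these skewed groups. Car12 was one of them in WT mouse 1 on 2 occasions, at 9.31 at 3 DPP against 3.97 for the next of 6 early libraries, and at 7.40 at 5 DPP against 2.48 for the next of 4 late libraries. The other groups were of genes near 0. Car4 stood at 0.949 at 1 DPP in Tnfr2-/- mouse 1 with the other 5 early libraries at 0. Car7 stood at 0.948 at 2 DPP in WT mouse 2, with the next library at 0.495, and at 2.24 at 7 DPP in Tnfr2-/- mouse 2, with the next at 0.393.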

How the results depend on the processing

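The Car1 and Car2 values rest on 2 mice per genotype, the WT mice differed, and the files hold no counts, so no counting error near 0 is given. The number of members called at late days between genotypes was 1 with a pseudocount of 0.5, 0 with no filter, 0 on means per mouse and 1 with the highest transcript alone, in place of 2. The number called over all days was 0 on means per mouse, in place of 1. That for the WT course was 1 with no filter and 0 on means per mouse, in place of 3, and the member transcripts called in it were 1 with no filter, in place of 2. The cause was not tested. With libraries or mice left out, the numbers ran from 0 to 2 over all days, 0 to 3 at late days, 0 to 1 at early days and for the interaction, 0 to 3 in the WT course and 0 to 2 in the Tnfr2-/- course. The fits without a mouse among these hold no spread between mice of that genotype. For transcripts, with libraries alone left out, the numbers ran from 0 to 1 for genotype, 1 to 4 in WT and 0 to 2 in Tnfr2-/- colonoids. With the mouse as a replicate block, or its number as a fixed term, 1, 2, 0, 0, 3 and 0 members were called in these comparisons, and no call changed. The block used 1 correlation for all genes, 0.059 in the fit over all days and 0.093 with 10 groups. The fixed term pairs mice of the same number across genotypes, whose deviations correlated at -0.054 to 0.076. Neither fit could therefore fully take up the Car1 difference between the WT mice, and the unchanged calls are no check on it.

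Directions turned only in differences that were not called. With equal library totals, Car13 over all days was -0.065 and the Car2 transcript ENSMUST00000029078.8 was -0.083 in the Tnfr2-/- course. With the highest transcript alone, Car12 was 0.12 in the WT and 0.028 in the Tnfr2-/- course, and in the latter Car1 was -1.32 and Car2 0.003. With libraries or mice left out, log2 differences between genotypes ran from -4.23 to 0.46 for Car1 and -0.015 to 0.47 for Car2 at early days. Over all days they ran from -0.54 to 0.13 for Car2, -0.20 to 0.81 for Car9, -0.27 to 0.17 for Car12 and -0.056 to 0.065 for Car13. With libraries alone left out, ENSMUST00000094365.10 ran from -0.13 to 0.54. For Car9 they ran from -0.75 to 0.94 at late days and from -0.91 to 0.22 for the interaction. In the WT course they ran from -0.20 to 1.45 for Car4, -0.25 to 0.63 for Car8, -0.42 to 0.22 for Car12 and -0.24 to 0.23 for Car13. In the Tnfr2-/- course they ran from -0.17 to 0.12 for Car2, 0.00 to 0.59 for Car4 and -0.11 to 0.52 for Car13. ENSMUST00000029078.8 ran from -0.077 to 0.084 there with libraries alone left out.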
